A study of Homo sapiens with 6 samples.

Results

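CpG methylation was examined over a pair of imprinted domains, DLK1-MEG3 on chromosome 14 and GNAS on chromosome 20, in cells of a human embryonic stem cell line before and after resetting. The members were 6 genes, DLK1, MEG3, RTL1, MEG8, GNAS and GNAS-AS1, taken by name. Their loci were divided into 500-bp tiles of a fixed genome-wide grid, from 1000 bp upstream of the first DLK1 transcription start site (TSS) to the end of MEG8 (chr14:101191042-101505196, GRCh37) and from 1000 bp outside GNAS and GNAS-AS1 together (chr20:57392973-57487247). Of 604 and 187 tiles with any call, 405 and 128 had at least 10 calls in every library. These 533 tiles of 1982370 such tiles in the genome are described here, together with all 78 promoters of the 6 genes, each from 1000 bp upstream to 500 bp downstream of a TSS. All 78 passed the same minimum number of calls.

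In an imprinted domain 1 parental copy of a control region carries DNA methylation, and the genes of the domain are then expressed from 1 parental copy. In DLK1-MEG3 the control region is methylated on the paternal copy. The paternal copy expresses the protein-coding genes DLK1, a Notch-family ligand, and RTL1, derived from a retrotransposon. The maternal copy expresses the noncoding RNAs MEG3 and MEG8. GNAS encodes the stimulatory G protein alpha subunit and has alternative first exons. NESP55 is transcribed from the maternal copy, XL and A/B from the paternal copy, and GNAS-AS1 is the paternal antisense RNA that starts close to XL. In somatic tissue the A/B, XL and GNAS-AS1 starts are methylated on the maternal copy and NESP55 on the paternal copy, and the canonical promoter is unmethylated. Regions of this kind are read near 50% when the copies are not told apart, which was the case in these data: no level given here can be assigned to a parental copy.

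The established embryonic stem cell line H9 had been sequenced genome-wide after bisulfite treatment, with 3 Conventional and 3 Reset libraries. Conventional cells had been kept with 10 ng/ml bFGF and 20% KSR (knockout serum replacement). Reset cells had been obtained with doxycycline-induced NANOG and KLF2 transgenes and then kept without induction in t2iL+Gö, which combines 1 μM CHIR99021 (an inhibitor of GSK3), 1 μM PD0325901 (an inhibitor of MEK) and LIF with 5 μM Gö6983 (an inhibitor of protein kinase C). Both were grown on mouse feeder cells in 5% oxygen. All libraries come from the same cell line, and the sources do not say whether the Reset libraries stand for separate resetting events. The p-values therefore cover these libraries only and not other lines or resetting events.

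For every tile, promoter or stretch, methylated calls were divided by all calls at its CpGs, with the strands summed, and this share in percent is its level. Libraries held 2.51 to 3.49 calls per CpG, so single CpGs are not reported. Over all calls of the genome, Conventional libraries read 84.3 to 84.6% and Reset libraries 29.5 to 30.3%. The test of a tile or promoter was a quasi-binomial model whose dispersion was squeezed by limma, with adjustment over all tiles or all promoters of the genome. Squeezing draws a dispersion toward that of all tiles or promoters (19.5 prior degrees of freedom for tiles). Where the libraries differed more than usual, the p-value understates their own spread. The widest 95% Wilson interval of a named promoter level is given where it bears on a value. Such intervals cover counting error only, and a read that spans several CpGs gives several calls. Because 95.9% of all tiles were called lower in Reset, the call alone says little, and levels are given throughout.

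The sequences below show what these levels were measured on, 1 window from each place on which the results turn. They are 300 bases each of the plus strand of GRCh37, read 5′ to 3′, with every CpG in capitals. The first pair lost methylation almost completely and the second pair gained it. The fifth was intermediate on average in both groups, with libraries far apart. The sixth is the upstream end of the A/B promoter and stops before the A/B starts.
MEG3, at the main start, chr14:101292669-101292968: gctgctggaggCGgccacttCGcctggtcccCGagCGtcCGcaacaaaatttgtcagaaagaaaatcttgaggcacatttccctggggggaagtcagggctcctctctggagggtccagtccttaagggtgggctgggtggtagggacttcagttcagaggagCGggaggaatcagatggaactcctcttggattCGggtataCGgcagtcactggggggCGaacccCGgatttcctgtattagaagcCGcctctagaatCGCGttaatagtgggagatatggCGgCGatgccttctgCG
DLK1 to MEG3, upstream of the main MEG3 start, chr14:101274607-101274906: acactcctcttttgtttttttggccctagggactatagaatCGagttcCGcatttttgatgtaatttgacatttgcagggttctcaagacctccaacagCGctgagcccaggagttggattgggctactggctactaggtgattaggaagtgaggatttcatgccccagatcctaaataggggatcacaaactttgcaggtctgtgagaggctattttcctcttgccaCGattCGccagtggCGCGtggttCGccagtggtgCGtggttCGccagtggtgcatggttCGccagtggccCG
MEG8, internal, chr14:101371001-101371300: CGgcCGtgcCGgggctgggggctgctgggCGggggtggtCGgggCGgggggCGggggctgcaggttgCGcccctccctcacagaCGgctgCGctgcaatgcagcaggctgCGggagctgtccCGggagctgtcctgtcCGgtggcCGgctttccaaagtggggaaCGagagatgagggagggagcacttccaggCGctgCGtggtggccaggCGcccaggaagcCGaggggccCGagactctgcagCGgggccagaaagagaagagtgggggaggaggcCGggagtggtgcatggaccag
GNAS, beside the GNAS-AS1 start, raised, chr20:57427001-57427300: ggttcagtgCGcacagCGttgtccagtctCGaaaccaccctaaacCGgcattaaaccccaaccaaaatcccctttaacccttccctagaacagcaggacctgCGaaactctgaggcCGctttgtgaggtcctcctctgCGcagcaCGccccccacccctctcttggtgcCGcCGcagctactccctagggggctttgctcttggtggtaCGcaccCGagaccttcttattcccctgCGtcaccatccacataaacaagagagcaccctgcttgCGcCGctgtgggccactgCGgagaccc
GNAS, beside the GNAS-AS1 start, intermediate in both, chr20:57426683-57426982: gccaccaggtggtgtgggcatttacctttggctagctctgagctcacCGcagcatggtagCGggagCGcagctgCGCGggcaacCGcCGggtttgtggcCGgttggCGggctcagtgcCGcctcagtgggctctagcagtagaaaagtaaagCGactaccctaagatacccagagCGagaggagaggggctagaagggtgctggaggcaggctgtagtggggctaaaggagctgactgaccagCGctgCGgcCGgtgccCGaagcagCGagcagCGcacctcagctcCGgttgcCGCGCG
GNAS, A/B promoter, chr20:57463157-57463456: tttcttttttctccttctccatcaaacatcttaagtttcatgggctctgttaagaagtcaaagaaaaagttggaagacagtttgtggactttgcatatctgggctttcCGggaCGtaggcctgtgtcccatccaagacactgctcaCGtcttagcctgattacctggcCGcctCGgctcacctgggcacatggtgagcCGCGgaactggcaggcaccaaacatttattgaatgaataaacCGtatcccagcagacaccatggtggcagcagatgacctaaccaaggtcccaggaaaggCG
The first 4 windows were chosen by the tiles with the largest fall or rise among called tiles whose groups do not overlap. Their levels, and the separation of their groups, are thus a description. The MEG3 window, with 16 CpGs in an intron of MEG3, stood at 100%, 100% and 95.2% in Conventional 1 to 3 and at 0% in each Reset library. The upstream window, with 12 CpGs in an intron of the longest MEG3 transcript, was 97.8%, 100% and 100% in Conventional and 6.45%, 0% and 5% in Reset. In both windows every Reset library lay far below every Conventional library. The MEG8 window, with 22 CpGs, went the other way, from 2.78%, 2.9% and 1.32% to 68.8%, 57.1% and 65%. The raised window beside the GNAS-AS1 start, with 16 CpGs in an intron of GNAS, had 26.6%, 19.1% and 12% in Conventional and 64.5%, 68.4% and 55% in Reset. Just upstream of it, the intermediate window with 22 CpGs read 55.4%, 76.8% and 24% in Conventional and 75%, 56.3% and 45% in Reset, and these values overlapped. The A/B window, with 9 CpGs in an intron of GNAS, fell from 47.4%, 50% and 46.2% to 6.45%, 0% and 0%. The whole A/B promoter has 137 CpGs. In Reset 1 to 3 the MEG8 window held only 16, 35 and 40 calls and the raised GNAS window 31, 19 and 20. In Conventional 1 to 3 these windows held 72, 69 and 76 calls and 79, 47 and 25 calls.

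Across the DLK1-MEG3 domain 389 of 405 tiles were called lower in Reset (96.0%, against 95.9% of all tiles), 6 higher (1.48%, against 0.737% of all tiles) and 10 neither. In GNAS 108 of 128 tiles were lower (84.4%), 2 higher (1.56%) and 18 neither. The median tile of DLK1-MEG3 went from 91.4% to 44.8% and that of GNAS from 89.1% to 34.8%, where the median of all tiles went from 92.0% to 32.7%. The 354 DLK1-MEG3 tiles over 80% in Conventional cells kept a median of 46.6% in Reset cells. The median was 38.5% for the 80 such tiles of GNAS and 34.7% for all such autosomal tiles. Of those tiles, 28 in DLK1-MEG3 (7.91%) and 8 in GNAS (10%) came to lie under 20% in Reset, compared with 20.5% of such autosomal tiles. Most of those 28 tiles lay in the stretches of 16 and 7 tiles described below. Calls per CpG relative to the rest of each library ranged over DLK1-MEG3 from 0.875 to 0.931 in Conventional but from 1.01 to 1.05 in Reset, and over GNAS from 0.790 to 0.866 and from 0.886 to 0.983. The part of this difference in the methylation levels was not tested.

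Among gene bodies, DLK1 itself had 76.6%, 75.7% and 69.0% in Conventional and 32.5%, 35.5% and 33.6% in Reset libraries. MEG3 had the deepest fall of the 6 in percentage points, from 89.0% ± 0.768 to 36.4% ± 1.01 (SD, n = 3). RTL1 fell from 82.9% ± 1.05 to 50.8% ± 1.40, and MEG8, which spans the small RNA clusters of the domain, from 84.0% ± 0.756 to 44.3% ± 1.56. GNAS fell from 60.7% ± 1.57 to 25% ± 2.05 and GNAS-AS1 from 75.6% ± 0.421 to 35.7% ± 0.451. No group overlapped with the other in any of these genes, and the two-sided exact permutation test gave p = 0.1 for each, the smallest p that 3 libraries against 3 allow. The same was true of the region from the end of DLK1 to the main MEG3 TSS, which went from 90.8% ± 0.856 to 39.2% ± 0.971. The part of that region up to the first annotated MEG3 TSS went from 90.4% ± 0.895 to 45.9% ± 2.60. The share of all gene bodies whose groups do not overlap was not computed. With 95.9% of all tiles called lower, the lack of overlap says little about these genes.

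**Figure D1:**
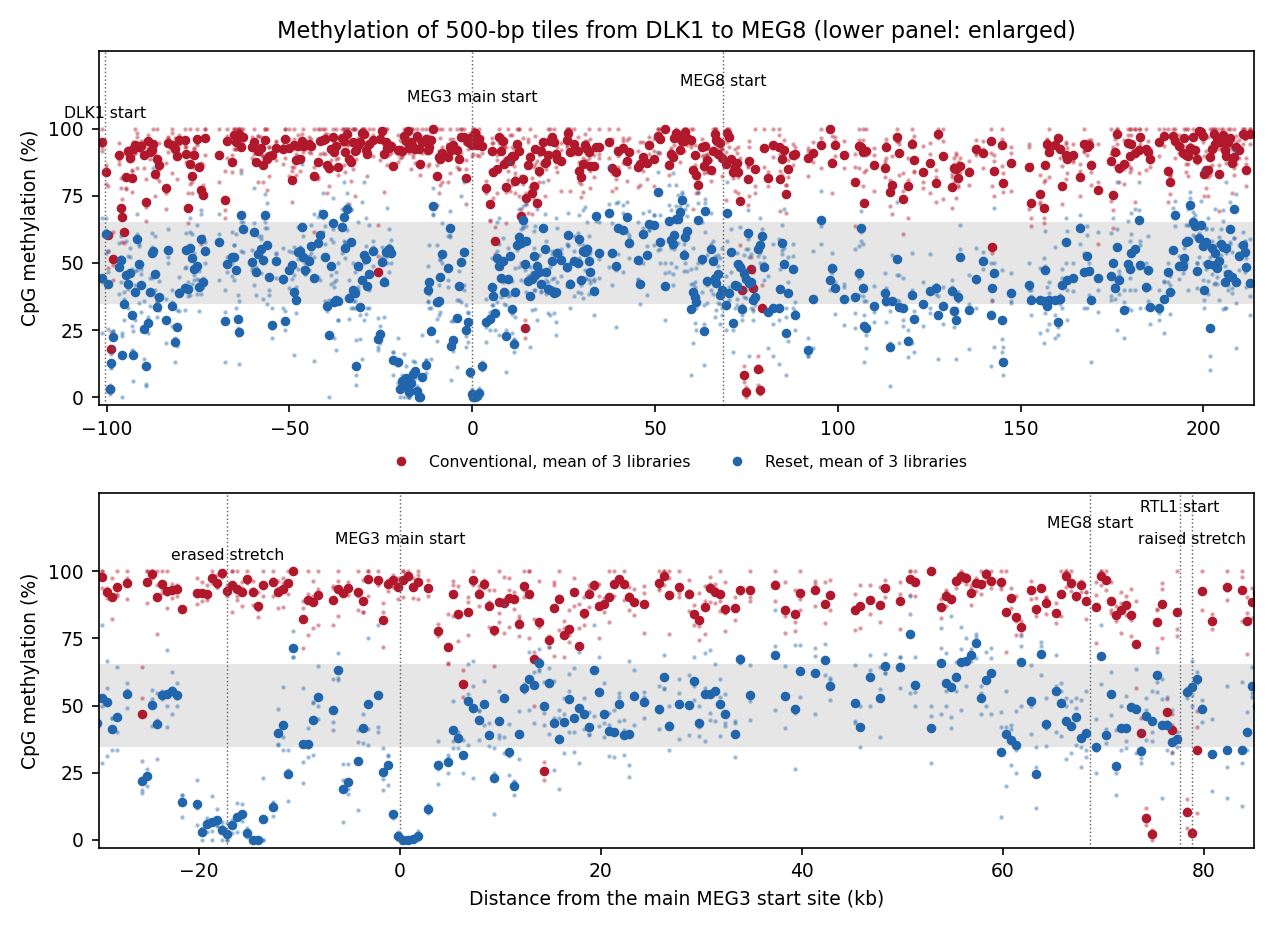
Methylation level (%) of each tested 500-bp tile against distance in kb from the main MEG3 start site; large points are group means and small points the 3 libraries of each group, the grey band is 35 to 65% and the lower panel enlarges the middle of the upper one. Conventional tiles lie mostly above 80% (median 91.4%), Reset tiles spread around 44.8%, and Reset levels approach 0 at the main MEG3 start and in a stretch upstream of it, while a few tiles in MEG8 near the RTL1 start lie near 0 in Conventional and near 50% in Reset.

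Of promoters, 68 of 78 were called lower in Reset (87.6% of all promoters were), 3 higher (2.44% of all promoters) and 7 neither. Many of these promoters overlap and share calls. DLK1 had 2 promoters, both lower. The main DLK1 promoter, shared by 4 transcripts (TSS chr14:101193229), was already partly methylated in Conventional cells, at 40.3%, 41.6% and 27.5%, and read 24.1%, 16.5% and 23.3% in Reset cells (adjusted p = 0.000969). The libraries of the groups did not overlap. The fall of 15.1 points took away 41.5% of the Conventional level. From a mean of 36.4%, a fall as large as the median of 47.8 points over all promoters was not possible. The first DLK1 promoter (TSS chr14:101192042, 1 transcript) fell from 83.3% ± 4.02 to 55.3% ± 5.02 (adjusted p = 7.7e-06).

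All 15 MEG3 promoters were lower, as were 87.6% of all promoters. The main promoter, shared by 27 transcripts (TSS chr14:101292435), carried 93.2%, 97.5% and 95.6% in Conventional and 10.1%, 5.33% and 6.32% in Reset libraries (adjusted p = 1.03e-15). The Conventional level was thus not intermediate, as a region methylated on 1 copy would be read, but near complete. The fall of 88.2 points ranked 686 among 127873 promoters tested. The next promoter downstream (TSS chr14:101293748), which overlaps it, had 91.2%, 96.4% and 97.5% in Conventional, and in Reset 0.518%, 0% and 0% (adjusted p = 4.58e-16). It had the deepest fall of all 78 promoters and ranked 43 in the genome. Of 208 calls in Reset 3 none was methylated. Reset levels of the MEG3 promoters farther downstream were higher, between 20.2% and 53.5%. The promoter at chr14:101295948 retained 20.2% ± 3.90 and that at chr14:101300101 49.9% ± 6.39, while their Conventional levels were 83.8% ± 3.62 and 91.9% ± 2.07. At the first MEG3 TSS (chr14:101245747, 1 transcript), which lies far upstream between DLK1 and the main MEG3 TSS, methylation went from 93.4% ± 2.73 to 56.2% ± 5.72 (adjusted p = 4.53e-09).

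Neighbouring tiles over 80% in Conventional and under 20% in Reset formed 2 stretches of at least 2 tested tiles in the DLK1-MEG3 domain. They were chosen by these values and were not tested. One, at chr14:101291501-101295500 with 190 CpGs in 7 tested tiles, covers most of the MEG3 promoters at chr14:101292435 and chr14:101293748 and went from 95.3% ± 2.25 to 2.23% ± 0.444. The other, at chr14:101270501-101280000, covers 9500 bp with 200 CpGs in 16 tested tiles. It lies between DLK1 and the main MEG3 TSS, the interval in which the domain's intergenic control region is known to lie, and within an intron of the longest MEG3 transcript. Its levels were 88.6%, 88.0% and 86.3% in Conventional and 5.71%, 4.85% and 7.78% in Reset libraries. Between and around these stretches Reset cells retained more: the whole region from DLK1 to the main MEG3 TSS kept 39.2%. The tiles with the largest falls in the domain lay in these stretches, at chr14:101293001-101293500 (98.2% to 0%), chr14:101292501-101293000 (96.8% to 0%) and chr14:101274501-101275000 (99.3% to 3.82%). The MEG3 and upstream windows printed above are from the last 2 of these tiles.

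MEG8 had 33 promoters, of which 31 were lower (87.6% of all promoters were), 1 higher (2.44% of all promoters) and 1 neither. Its first promoter (TSS chr14:101361107, 4 transcripts) had 90.9%, 97.1% and 89.1% in Conventional and 37.3%, 32.0% and 44.3% in Reset libraries (adjusted p = 2.1e-09). Most MEG8 promoters behaved like it, with a median of 86.3% in Conventional and 38.6% in Reset. The exception lay at an internal TSS (chr14:101370917, 1 transcript), close to the start of RTL1 on the opposite strand. Here Conventional libraries had 19.2%, 21.6% and 18.6% and Reset libraries 55.3%, 53.2% and 58.8% (adjusted p = 7.55e-09). Every Reset library lay above every Conventional one, and the rise of 35.9 points ranked 182 among 127873 promoters. The promoter that was not called (TSS chr14:101441144) has 3 CpGs and read 50.3% ± 9.24 and 41.3% ± 13.9 (adjusted p = 0.591), with at most 20 calls in a library.

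RTL1 has 1 promoter (TSS chr14:101370059), which runs into the same raised part of MEG8. It was called higher, from 30.8%, 50% and 36.8% in Conventional to 51.4%, 53.3% and 48.1% in Reset (adjusted p = 0.00769), but the groups overlapped. With bounds of 500 bp on each side, which leave out most of the raised part, it was called lower instead (-28.2 points, adjusted p = 0.000349). The call of a higher level was lost by limma on arcsine square-root levels (adjusted p = 0.0756), without Conventional 1 (7.46 points, adjusted p = 0.119) and without Reset 2 (10.5 points, adjusted p = 0.0653).

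The raised part of MEG8 comprised 5 of the 6 DLK1-MEG3 tiles called higher. They formed 2 stretches, which were chosen by their calls and not tested again. The stretch at chr14:101370501-101372000, with 61 CpGs in 3 tiles, had 9.80%, 14.2% and 5.63% in Conventional and 54.2%, 56.0% and 61.5% in Reset. Its last tile, chr14:101371501-101372000 (33.3% to 60%, adjusted p = 0.0378), lost its call without any single library other than Conventional 2 (adjusted p = 0.0635 to 0.113). The stretch at chr14:101366501-101367500, with 27 CpGs in introns of MEG8, MIR493HG and RTL1, had 7.14%, 5.21% and 4.12% against 45.3%, 37.1% and 52.2%. The largest rises were at chr14:101371001-101371500 (2.56% to 56.8%, adjusted p = 2.97e-09), chr14:101370501-101371000 (10.4% to 55.1%, adjusted p = 5.44e-08) and chr14:101367001-101367500 (2.02% to 44.1%, adjusted p = 1.99e-07). Tiles called higher that went from under 20% to between 35 and 65% made up 0.175% of all tiles, and there were 4 in DLK1-MEG3 and 1 in GNAS. In Reset the whole MEG8 gene had 42.5%, 44.9% and 45.4%, so each library was lower there than in the stretch at chr14:101370501-101372000. The stretch at chr14:101366501-101367500 lay above the gene in Reset 1 and Reset 3 but below it in Reset 2. The sixth higher tile, chr14:101306501-101307000 in an intron of MEG3, went from 25.7% to 49.6% (adjusted p = 0.0036).

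**Figure D2:**
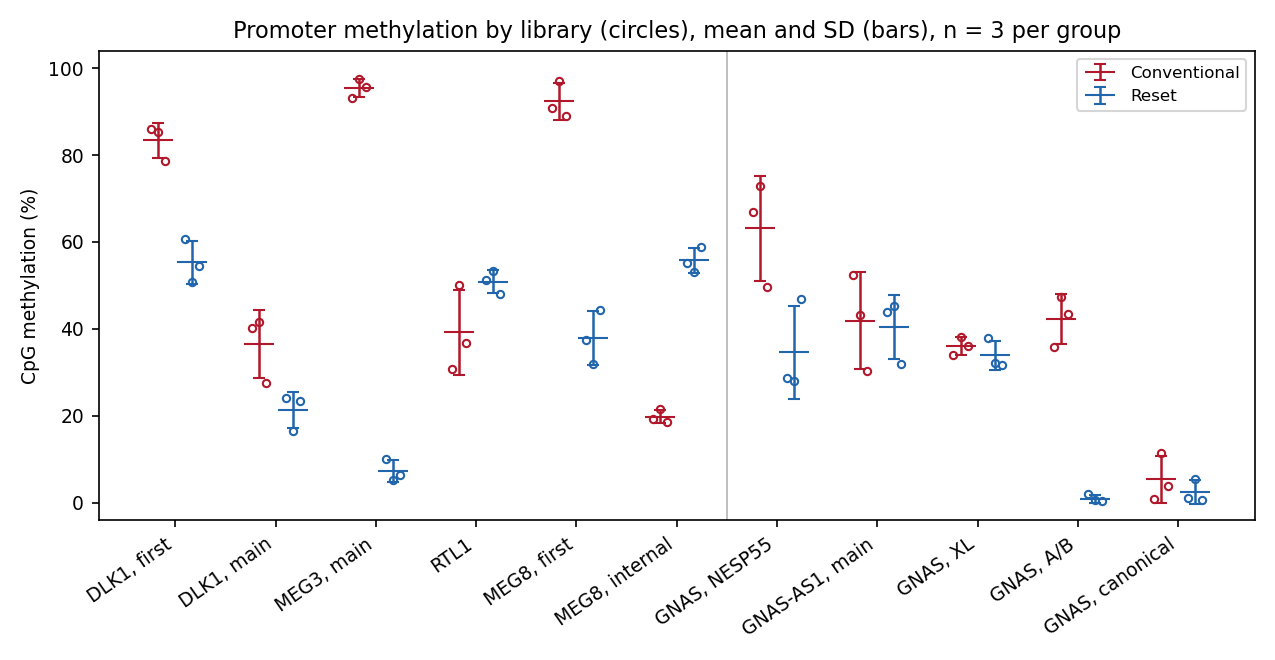
Methylation level (%) of 11 promoters of the 6 member genes, with DLK1-MEG3 left and GNAS right of the vertical line; circles are single libraries, horizontal marks the mean and bars the SD of 3 libraries, Conventional in red and Reset in blue. The main MEG3 and the A/B promoters drop to 7.26% and 0.90%, the internal MEG8 promoter rises from 19.8% to 55.7%, and the GNAS-AS1 and XL promoters have values that overlap between the groups.

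GNAS had 24 promoters: 18 were lower, 1 higher and 5 neither, and GNAS-AS1 had 3, of which 2 were lower and 1 neither. Of all promoters, 87.6% were lower and 2.44% higher. At the NESP55 start (TSS chr20:57414773, 5 transcripts), the first exon of the maternal transcript, Conventional libraries had 66.9%, 72.9% and 49.6% and Reset libraries 28.8%, 28.1% and 46.8% (adjusted p = 1.85e-05). The lowest Conventional library was only just above the highest Reset library. In the adjoining tile chr20:57415001-57415500 the Conventional libraries themselves disagreed, at 63.9%, 0% and 90.6%, with 15 calls in Conventional 2. The next promoter (TSS chr20:57415162, 1 transcript) fell from 57.9% ± 3.16 to 35.5% ± 9.90, without overlap (adjusted p = 1.8e-05). Further downstream, the promoter at chr20:57415899 had 46.1% ± 15.3 and 37.3% ± 3.88, with overlap (adjusted p = 0.0166). Its call was lost without Conventional 1, Conventional 3 or Reset 2 (adjusted p = 0.0545, 0.172 and 0.111), and the difference of -8.86 points was -1.88 points without Conventional 3. The promoter at chr20:57416398 (7 transcripts) had 49.1%, 38.1% and 45.6% in Conventional and 34.9%, 39.5% and 24.6% in Reset, with overlap (adjusted p = 0.0062). The call at chr20:57416398 was lost without Conventional 1 (adjusted p = 0.064) and without Reset 3 (adjusted p = 0.0762). The GNAS-AS1 promoter at chr20:57415899, with the same bounds and calls, lost its call in the same way. The GNAS-AS1 promoter at chr20:57415230 (adjusted p = 0.0228) lost its call without Conventional 1, Conventional 3 or Reset 2 (adjusted p = 0.0745, 0.143 and 0.176). With limma on arcsine square-root levels none of these overlapping promoters was called: adjusted p was 0.281 for GNAS and 0.0748 for GNAS-AS1 at chr20:57415899, 0.0748 at chr20:57416398 and 0.232 at chr20:57415230. With 500 bp on each side those starting at chr20:57415899 and chr20:57415230 were not called either (adjusted p = 0.0767 and 0.0554).

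The main GNAS-AS1 promoter (TSS chr20:57425958, 5 transcripts) was intermediate in both states. Conventional libraries had 52.3%, 43.2% and 30.3% and Reset libraries 44%, 45.2% and 32.0%, a difference of -1.53 points (adjusted p = 0.639). The Reset libraries lay within the range of the Conventional ones, and the difference was 3.67 points without Conventional 1 and 2.68 points without Reset 3. The XL promoter (TSS chr20:57428316, 6 transcripts), which starts the long paternal form of the protein, had 33.9%, 38.2% and 35.9% against 37.8%, 32.1% and 31.8% (adjusted p = 0.655). With bounds of 500 bp on each side, which leave out most of the tiles called higher just upstream, the XL promoter was called lower (-18.9 points, adjusted p = 0.000451). The promoter just before it (TSS chr20:57427769, 3 transcripts) had 21.7%, 35.6% and 13.0% in Conventional and 48.2%, 28.8% and 30.2% in Reset, with overlap (adjusted p = 0.0134). This call was lost by limma on arcsine square-root levels (adjusted p = 0.116), without Conventional 3 (7.07 points, adjusted p = 0.0895) and without Reset 1 (6.04 points, adjusted p = 0.292). Between the GNAS-AS1 and XL starts, the tile chr20:57427001-57427500 had 24.8%, 17.2% and 11.6% in Conventional and 67.3%, 58.8% and 52.2% in Reset (adjusted p = 1.54e-06). It is the only GNAS tile called higher whose groups do not overlap.

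At the A/B start, the paternally expressed first exon nearest to the canonical promoter, methylation was lost. The promoter with most transcripts (TSS chr20:57464155, 10 transcripts, 137 CpGs) had 35.9%, 47.3% and 43.5% in Conventional and 1.90%, 0.504% and 0.300% in Reset libraries (adjusted p = 1.19e-12). The widest 95% Wilson interval of these levels had a half-width of 7.41 points. The other A/B promoters, at chr20:57463468, chr20:57463834 and chr20:57464936, overlap it and went from between 35.3% and 41.6% to between 0.701% and 3.97%. The canonical promoter (TSS chr20:57466357, 4 transcripts), the main source of the G protein subunit, was low in both states, at 0.847%, 11.4% and 3.85% in Conventional and 1.15%, 5.51% and 0.709% in Reset (adjusted p = 0.219). Conventional 2 was the highest library there. In the tile chr20:57466501-57467000 it read 55.9% of 34 calls where the other Conventional libraries read 0.962% and 0%, and without it the difference at the canonical promoter was 0.109 points. The difference was called without Conventional 1 (-5.16 points, adjusted p = 0.0265) and without Reset 2 (-4.43 points, adjusted p = 0.0149).

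The A/B promoter was compared with the other starts within each library. These comparisons were not planned and were made with the levels of the starts known. Their p-values are thus a description and no independent support. The A/B level minus the XL level was 1.98, 9.12 and 7.51 points in Conventional and -35.9, -31.6 and -31.5 points in Reset. Against GNAS-AS1 it was -16.4, 4.15 and 13.2 points in Conventional and -42.1, -44.7 and -31.7 points in Reset. These differences changed between the states by -39.2 and -39.8 points, and the exact permutation test gave p = 0.1 for each, the smallest possible with 3 libraries a group. Against the canonical promoter the change was -38.4 points (exact p = 0.1). With means of 5.36% and 2.46% that promoter could hardly fall, so this contrast mostly restates the change of -41.3 points at A/B itself. Against NESP55, which also fell, the change of the difference was -12.8 points, and the libraries overlapped (exact p = 0.4). With bounds of 500 bp on each side, a recomputation chosen after seeing the data, the change against XL was -25.7 points (exact p = 0.1), since XL then fell by 18.9 points itself. Against GNAS-AS1, the canonical promoter and NESP55 it was then -39.9, -38.7 and -18.5 points (exact p = 0.1, 0.1 and 0.2).

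**Figure D3:**
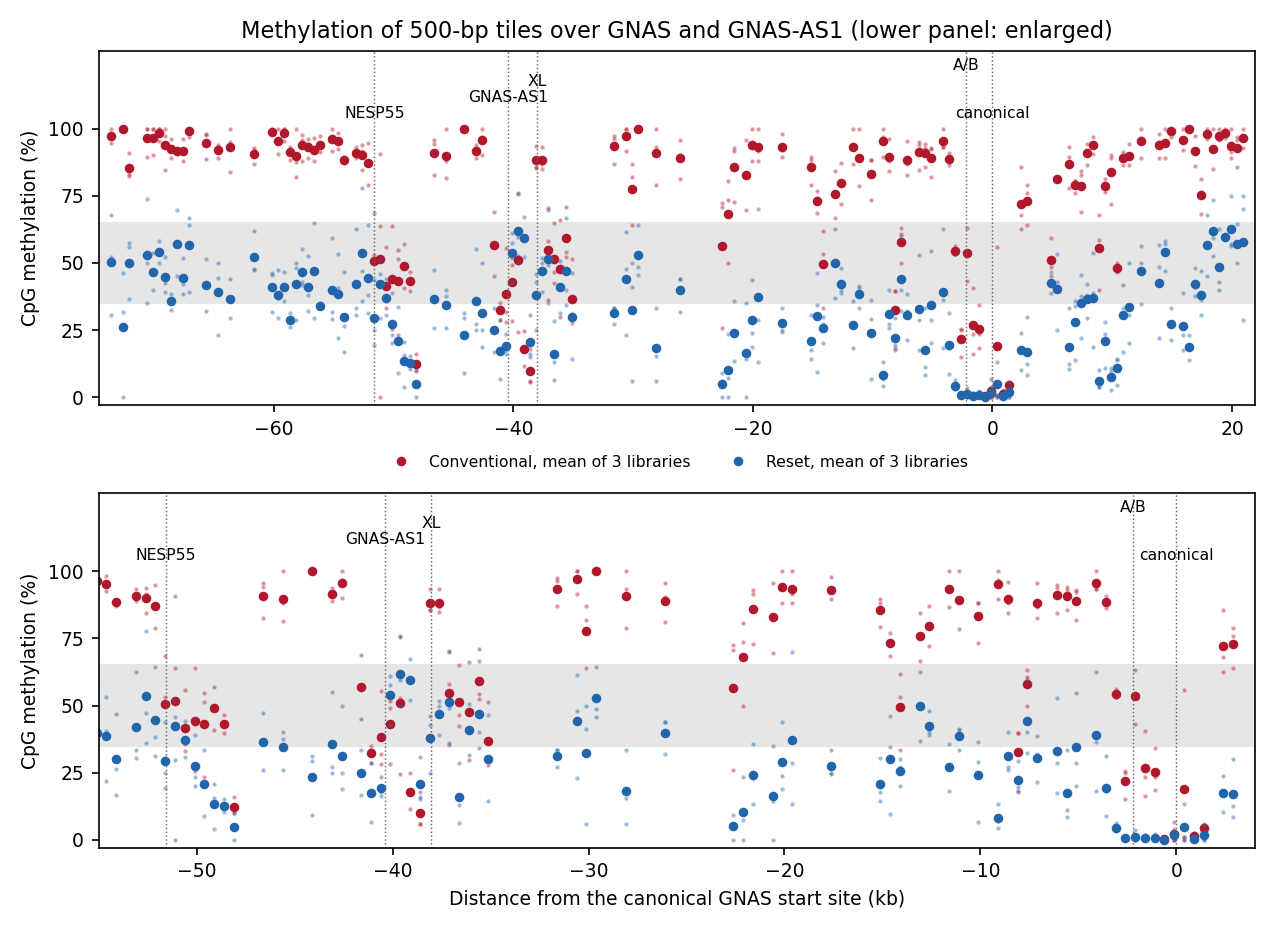
Methylation level (%) of each 500-bp tile with at least 10 calls in every library, against distance in kb from the canonical GNAS start site; large points are group means, small points the 3 libraries of each group, and dotted lines the alternative starts, with the region from NESP55 to the canonical start enlarged below. Conventional levels near 50% occur at NESP55, around GNAS-AS1 and XL, and at A/B, and Reset levels are in the grey band of 35 to 65% in part of the tiles around GNAS-AS1 and XL but lie near 0 at A/B (0.90%).

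Elsewhere in GNAS the largest falls were at chr20:57457001-57457500 in an intron (95.4% ± 5.39 to 8.12% ± 4.57), at chr20:57482501-57483000 (100% in each Conventional library to 18.7% ± 4.61) and at chr20:57422001-57422500, with 4 CpGs (100% in each Conventional library to 23.3% ± 12.3). Promoters in the body of the gene were called lower, from chr20:57468150 (6.25% ± 1.48 to 1.10% ± 1.90, adjusted p = 0.00881) to chr20:57483036 (96.1% ± 0.208 to 28.2% ± 3.10, adjusted p = 3.09e-12). Those at chr20:57470030 and chr20:57470252, which share their calls, fell by 27.0 points but were not called with 500 bp on each side (-9.06 and -9.50 points, adjusted p = 0.342 and 0.316). The 3 promoters that overlap the canonical one downstream, at chr20:57466746, chr20:57467036 and chr20:57467388, had mean levels of 5.78 to 6.12% in Conventional and 2.83 to 3.03% in Reset and were not called (adjusted p = 0.438, 0.531 and 0.56). Their Conventional means rest on Conventional 2, at 16.3%, 16.2% and 15.7%, where the other Conventional libraries had at most 1.61%.

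A tile was taken as near 50% when the mean of the Conventional libraries lay between 35 and 65% and each of them between 20 and 80%. There were 23 such tiles among 128 in GNAS (18.0%) and 9 among 405 in DLK1-MEG3 (2.22%), and 3.09% of autosomal tiles met the definition. DLK1-MEG3 thus held no more such tiles than the genome, whereas GNAS held several times the share. In Reset cells the 23 GNAS tiles divided into 9 under 20%, 6 between 20 and 35%, 8 between 35 and 65% and 0 over 65%. The count between 35 and 65% depended on the grid: it was 2 of 20 near-50% tiles on a grid shifted by 250 bp and 4 of 15 with 1000-bp tiles. Of the 9 DLK1-MEG3 tiles 0 were under 20%, 5 between 20 and 35%, 4 between 35 and 65% and 0 over 65%. For the 59265 near-50% autosomal tiles of the genome the shares were 54.1% under 20%, 30.4% between 20 and 35%, 15.3% between 35 and 65% and 0.174% over 65%. The share between 35 and 65% in Reset was 34.8% in GNAS and 44.4% in DLK1-MEG3 on this grid. With 2 of 20 tiles the shifted grid did not place GNAS above the genome's share on the unshifted grid, and in DLK1-MEG3 it gave 5 of 9 tiles between 35 and 65% and 2 under 20%. Over tiles with at least 20 CpGs the share of near-50% tiles of the genome in that class was 19.3%, and 14 of the GNAS tiles but 1 of the DLK1-MEG3 tiles were as dense. Called lower were 13 of 23 and 5 of 9, against 83.2% of near-50% autosomal tiles. These tiles were chosen on the Conventional values that enter the difference. Chosen by Conventional 1 alone there were again 9 and 23 tiles, whose medians were 57.4% and 69.6% in Conventional 2 and 3 and 40.1% in Reset for DLK1-MEG3, and 54.2%, 50% and 22.2% for GNAS.

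Of the 9 DLK1-MEG3 tiles, 3 lay in DLK1, 2 in MEG3 and 4 in MEG8. The DLK1 tiles at chr14:101192501-101193000, chr14:101194001-101194500 and chr14:101197001-101197500 went from 60.5% to 42.1%, from 51.4% to 22.4% and from 61.6% to 34.8%, and all were called lower (adjusted p = 0.00994, 0.000339 and 0.000925). The first of these calls was lost by limma on arcsine square-root levels (adjusted p = 0.121), without Conventional 1 (-9.18 points, adjusted p = 0.105) and without Reset 2 (-9.95 points, adjusted p = 0.194). The MEG3 tiles at chr14:101266501-101267000 and chr14:101298501-101299000 went from 46.7% to 21.8% and from 58.0% to 31.4% and were called lower too (adjusted p = 0.0141 and 0.000211), the former not without Conventional 2, Conventional 3 or Reset 3 (adjusted p = 0.0738, 0.0886 and 0.052). None of the MEG8 tiles was called. At chr14:101366001-101366500 the levels were 39.8% and 33.0% (adjusted p = 0.373), and at chr14:101434501-101435000, with 2 CpGs, 56.0% and 40.6% (adjusted p = 0.256). The remaining 2 form a run at chr14:101368501-101369500, which lies between the raised stretches of MEG8. It had 38.4%, 45.7% and 43.9% in Conventional and 50%, 32.4% and 32.6% in Reset, with overlap and an exact permutation p of 0.6.

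Runs of consecutive near-50% tiles in GNAS occurred in 3 places. Like the run in MEG8, they were chosen on the Conventional values that enter their tests. The exact p-values of the runs are thus a description. At NESP55 (chr20:57415501-57418000, 5 tiles, 167 CpGs) the level went from 50.2%, 44.2% and 41.4% to 27.7%, 29.5% and 14.5%, without overlap (exact p = 0.1). Within that run, the tile at its start, chr20:57415501-57416000, had 41.5% and 37.1% (adjusted p = 0.37), and the one at its end, chr20:57417501-57418000, 43.1% and 12.6% (adjusted p = 4.69e-06). The difference between these tiles was not tested. At the GNAS-AS1 start (chr20:57425501-57427000, 3 tiles, 73 CpGs) the level was 52.8%, 46.1% and 31.7% in Conventional and 46.8%, 46.5% and 33.8% in Reset (exact p = 1). It is made up of 1 tile that fell, chr20:57425501-57426000 (38.4% to 19.1%, adjusted p = 0.00134, or 0.0509 by limma on arcsine square-root levels, where the call is lost), and 2 that were not called, chr20:57426001-57426500 (43.0% and 53.7%, adjusted p = 0.204) and chr20:57426501-57427000 (50.9% and 61.7%, adjusted p = 0.134). The last of these was called higher without Conventional 2 (23.2 points, adjusted p = 0.0217). The intermediate window printed above is from that tile. At the XL exon (chr20:57429001-57431500, 5 tiles, 199 CpGs) the level was 46.3%, 61.8% and 37.1% in Conventional and 35.9%, 37.3% and 34.7% in Reset, with overlap (exact p = 0.2). Of its tiles only chr20:57429501-57430000 was called, from 51.3% to 15.9% (adjusted p = 2.98e-05), although in that tile too Conventional libraries ranged from 42.5 to 65%. The tile chr20:57430001-57430500 was called lower without Conventional 3 (-15.6 points, adjusted p = 0.0314) and chr20:57430501-57431000 without Reset 2 (-22.0 points, adjusted p = 0.0238), against -6.62 and -12.2 points with all libraries.

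Outside the runs, 2 near-50% tiles at the A/B start, chr20:57463001-57463500 and chr20:57464001-57464500, went from 54.3% ± 1.68 to 4.32% ± 1.69 and from 53.6% ± 9.90 to 1.17% ± 2.03 (adjusted p = 1.11e-07 and 3.02e-10). The A/B window printed above is from the first of them. Those at chr20:57443501-57444000, chr20:57475001-57475500 and chr20:57476501-57477000 went to 5.05%, 5.85% and 10.9%. The tiles chr20:57458501-57459000 and chr20:57471001-57471500 had 58.0% and 51.0% in Conventional and 44% and 42.4% in Reset and were not called (adjusted p = 0.0643 and 0.227). The former was called lower without Conventional 3 or Reset 3 (adjusted p = 0.0482 and 0.0316). At chr20:57414501-57415000, chr20:57424501-57425000 and chr20:57452001-57452500 the level fell to between 25 and 29.3%. The call at chr20:57414501-57415000 was lost by limma on arcsine square-root levels (adjusted p = 0.0819) and without Conventional 2, Reset 1 or Reset 2 (adjusted p = 0.0845, 0.0829 and 0.0683), and that at chr20:57452001-57452500 without Conventional 1, Conventional 3 or Reset 1 (adjusted p = 0.05, 0.0578 and 0.0684).

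**Figure D4:**
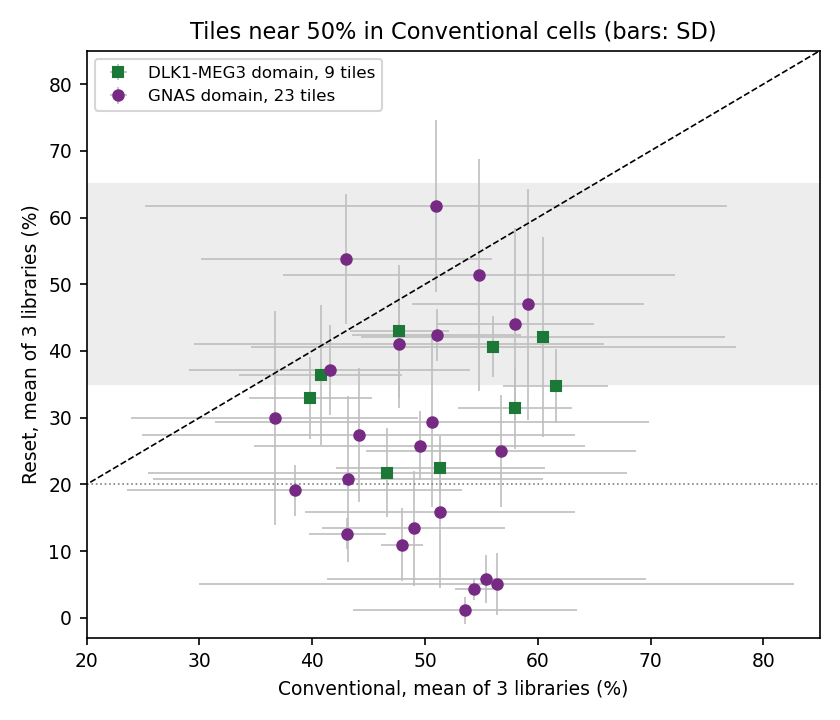
Mean methylation level (%) in Reset against Conventional cells for the 32 tiles near 50% in Conventional, with bars of 1 SD over 3 libraries, squares for the 9 tiles of DLK1-MEG3 and circles for the 23 of GNAS; the dashed line marks equal levels, the dotted line 20% and the grey band 35 to 65% in Reset. DLK1-MEG3 tiles lie between 21.8% and 42.9% in Reset, and GNAS tiles spread from 1.17% to 61.7%.

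The measured spread between libraries of a group was higher at the near-50% tiles of GNAS than at those of DLK1-MEG3 or of the genome. The difference was not tested. Several calls from the same read raise this spread too, and 14 of the 23 GNAS tiles held at least 20 CpGs. The median dispersion, the spread between libraries over that expected from counting (1 where only counting counts), was 3.61 for these tiles, 0.732 for those of DLK1-MEG3, 1.04 for all near-50% autosomal tiles and 2.04 for those with at least 20 CpGs. At the tile chr20:57426501-57427000 it was 10.2, with Conventional libraries at 52.6%, 75.9% and 24.3%. A tile of this kind that was not called is thus not shown to have kept its level.

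The hexamer TGCCGC, known as the methylated site bound by ZFP57, a protein that keeps imprints, was searched on both strands. It occurred in 7 of the 23 near-50% tiles of GNAS, in 0 of the 9 of DLK1-MEG3, in 7.68% of all near-50% autosomal tiles and in 6.38% of all tiles. Dense tiles hold it more often: of near-50% tiles with at least 20 CpGs, 6 of 14 in GNAS and 26.5% in the genome did. The tiles chr20:57426501-57427000 and chr20:57429001-57429500 held 3 each, 2 of the former within the printed window, and had 61.7% and 51.4% in Reset. The A/B tiles chr20:57463001-57463500 and chr20:57464001-57464500 held 0. The MEG3 tiles chr14:101292501-101293000 and chr14:101293001-101293500, at 0% in every Reset library, held 1 each. The median Reset level of the 6 dense GNAS tiles with the hexamer was 29.7% and that of the 8 without it 32.3%, and in the genome these medians were 19.3% and 16.0%. A match of these letters is a description of the sequence and not of binding.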

How the data were processed

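Sonicated DNA of H9 cells was ligated to methylated adapters, bisulfite-treated and amplified for 11 cycles by the authors. They used Trim Galore for trimming and Bismark with Bowtie2 for alignment to GRCh37. Bismark was 0.9.0 per the submitters' processing notes, whereas the published methods name an earlier version. For each CpG cytosine the authors deposited the count of methylated calls, the count of unmethylated calls and the percent methylated, unnormalized, 1 set per library. Removal of duplicate reads is not given in the sources used here. Positions, counted from 0, lay at a CpG in 99.8% of cases and are printed counted from 1. Libraries held 91846988 to 97822789 (Conventional) and 70186287 to 80042858 (Reset) calls at CpGs.

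Tiles of 500 bp and promoters (1000 bp upstream to 500 bp downstream of each GENCODE TSS, with TSSs of a gene at most 200 bp apart joined) were fitted by quasi-binomial logistic regression where each library had 10 calls or more, with a likelihood-ratio F test. Dispersions, squeezed with limma 3.58.1, were floored at 1. Adjustment was by Benjamini-Hochberg over the genome, with a threshold of 0.05. Stretches were compared by the two-sided exact permutation test. Results were recomputed with other call minimums, tile lengths, promoter bounds, tests and bands, with a replicate block, and without each library.

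The members and lists were chosen with earlier results of these data known. The text names every member gene, each run of near-50% tiles and, per domain, the 3 largest falls and rises among called tiles whose groups do not overlap. Single MEG3, MEG8 and GNAS promoters, other tiles and the erased and raised stretches were named after their values were seen. Promoters of neighbouring genes were counted, with examples. Libraries of a group differed by more than independent calls would give (mean chi-square per tile 1.24 in Conventional and 1.41 in Reset) and were kept as separate replicates. Several calls from the same read raise this value too, and their part in it was not tested.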

Additional observations from a re-analysis of the deposited data

How the results depend on the processing

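For counts and stretches, 207 alternative values lay within 1.5 times the count or, for stretches, kept their direction, 31 counts moved further and 4 values turned. Among single tiles, promoters and A/B contrasts, 1339 alternative values were unchanged in direction and call. There 63 lost a call, 11 gained a call, 14 turned and 1 contrast moved. A minimum of 20 calls left 160 lower and 3 higher tiles in DLK1-MEG3 and 43 lower tiles in GNAS, because fewer tiles could be tested, and 250-bp tiles 255 lower tiles in DLK1-MEG3. Higher tiles in GNAS were 1 with 250-bp tiles and by limma on arcsine square-root levels, 4 on the shifted grid, and 1 to 3 without single libraries. Near-50% tiles of DLK1-MEG3 numbered 15 with at least 5 calls and 5 with at least 20 calls (2 of them at 35 to 65% in Reset), with 250-bp or with 1000-bp tiles. Their number under 20% in Reset was 1 with at least 5 calls, a band of 30 to 70%, 250-bp or 1000-bp tiles, 2 on the shifted grid and 0 to 1 without single libraries. In GNAS 1000-bp tiles gave 15 near-50% tiles, 5 under 20% and 4 at 35 to 65%, and the shifted grid 2 at 35 to 65%. Higher promoters numbered 1 by limma on arcsine square-root levels and 2 to 3 without single libraries.

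The replicate numbers did not pair the libraries (correlations of deviations for equal numbers -0.00048, -9.33e-05 and -0.000515). With a replicate block 1 promoter and 1 GNAS tile were higher. The block ended the calls of the tiles starting at chr14:101192501, 101266501 and 101371501 (adjusted p = 0.0832, 0.0643 and 0.084) and at chr20:57414501, 57427501 and 57452001 (0.176, 0.174 and 0.0585). It also ended those of the promoters of RTL1 (0.0531), of GNAS at 57415899, 57416398 and 57427769 (0.116, 0.0704 and 0.107) and of GNAS-AS1 at 57415899 (0.0704), and with it the canonical promoter at 57466357 was called lower (0.039). By limma on arcsine square-root levels the GNAS tiles starting at 57416501 and 57427501 were not called (adjusted p = 0.0554 and 0.132), beside the losses given with the results.

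The difference over the run at GNAS-AS1 (-1.20 points) was -7.10 to 3.43 without single libraries and 0.0541 as a mean over CpGs. Single differences that turned without a library ranged, in points, from -5.16 to 0.109 for the canonical promoter (GNAS 57466357) and from -5.96 to 1.78, -5.56 to 2.18 and -5.63 to 2.23 for GNAS 57466746, 57467036 and 57467388, all turning without Conventional 2. The GNAS-AS1 promoter 57425958 ranged from -7.35 to 3.67 and turned without Conventional 1 (3.67) or Reset 3 (2.68). Among GNAS tiles, 57415501 ranged from -8.68 to 2.72 and 57426501 from -2.55 to 23.2 (-2.55 without Conventional 3), 57429001 from -12.8 to 4.72 (also 4.36 without Conventional 2), 57430001 from -15.6 to 2.62 and 57431001 from -14.8 to 1.21 (also 0.660 without Conventional 2). RTL1 with 500 bp on each side gave -28.2 points. The causes were not tested. Depth limits single tiles to a median of 27 (DLK1-MEG3) and 30 (GNAS) calls per library.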

Other observations

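Promoters of neighbouring genes were counted for 14 annotated genes of 15 listed. Of their 65 promoters 54 were lower in Reset (87.6% of all promoters were), 5 higher (2.44% of all promoters) and 6 not called. All 5 that rose belonged to BEGAIN, which lies upstream of DLK1 and encodes a protein of neuronal synapses. They overlap and lie at 1 CpG-rich start, and the remaining 5 BEGAIN promoters were lower. The BEGAIN promoter with 192 CpGs, at chr14:101034478, went from 1.15% ± 0.718 to 15.6% ± 0.127 (adjusted p = 6.75e-09), and the one at chr14:101035423 from 11.4% ± 4.83 to 34.5% ± 2.27 (adjusted p = 3.09e-07). In both, every Reset library lay above every Conventional library.

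At the far end of the same region, DIO3, which encodes a thyroid hormone inactivating enzyme, and its antisense RNA DIO3OS were low in both states at the promoters they share. The DIO3 promoter at chr14:102026476 had 4.62% ± 1.79 in Conventional and 2.63% ± 0.905 in Reset (adjusted p = 0.0758). The DIO3OS promoter with 24 transcripts, at chr14:102026828, had 1.88% ± 0.681 and 2.24% ± 2.34 (adjusted p = 0.403). The other DIO3 promoter, at chr14:102027832, overlaps it in part and was called lower (adjusted p = 0.00319). Its levels were 11.4%, 10.6% and 29.6% in Conventional and 4.20%, 10.1% and 4.69% in Reset. All 7 promoters of the noncoding RNA MEG9, which follows MEG8, were lower (87.6% of all promoters were), with Reset means from 40.5 to 59.9%. On chromosome 20 the main STX16 promoter, at chr20:57226328, had 2.49% ± 0.811 and 1.90% ± 1.30 (adjusted p = 0.464).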
